A study of Mus musculus with 8 samples.

Results

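The enzymes that lengthen or uridylate RNA 3′ ends were examined in fully grown germinal vesicle (GV)-stage mouse oocytes that lack the catalytic deadenylase subunits CNOT7 and CNOT8. The group held 10 genes, chosen by function from the 46078 gene rows of the count table, namely Papola, Papolg, Papd4, Papd5, Papd7, Zcchc6, Zcchc11, Fam46a, Fam46b and Fam46c. All 10 passed the filter on low counts, which kept 19241 genes, but Fam46a passed it only through its KO libraries. Symbols are those of the table, and newer names are Tent2 for Papd4, Tent4b for Papd5, Tent4a for Papd7, Tut7 for Zcchc6, Tut4 for Zcchc11, and Tent5a, Tent5b and Tent5c for the FAM46 genes.

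RNA-seq counts were analyzed from 8 libraries, 4 of Zp3-Cre control oocytes and 4 of CNOT7&8 KO oocytes. In the KO group, floxed alleles of Cnot7 and Cnot8 were deleted by Cre recombinase driven by the Zp3 promoter, which is active in growing oocytes, so the deletion arose during oocyte growth and only in the germ cell. Control oocytes came from mice with the same Zp3-Cre transgene, and per the study's methods the females were 4 weeks old, on a C57BL/6J background, and primed with pregnant mare serum gonadotropin before collection. Each library was made from 100 oocytes, and the sources used here do not say how many females these came from. The p-values measure only the spread between these libraries.

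The CCR4–NOT complex shortens poly(A) tails, and CNOT7 and CNOT8 are its CAF1-type deadenylases. Poly(A) polymerases and their noncanonical relatives work in the opposite direction: canonical enzymes add the tail to newly cleaved pre-mRNA in the nucleus, whereas noncanonical enzymes extend or modify tails later, many of them in the cytoplasm. Terminal uridylyltransferases instead add uridines, which marks mRNAs with short tails for decay. The growing oocyte stores mRNAs with short tails and is transcriptionally silent when fully grown, so that tail length sets much of its translation.

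Levels are given in CPM, counts scaled to a common library total, with totals adjusted by edgeR's TMM factors. Counts summed to 14943671 to 44092144 in control and 8639444 to 26784110 in KO libraries, so that 3 counts, used as the detection floor, correspond to between 0.0680 and 0.347 CPM before scaling. The floor covers counting error only. Cnot8 lay at 154 to 197 CPM in control and 33.1 to 36.1 CPM in KO libraries, a log2 fold change of -2.25 (adjusted p = 8.2e-08, edgeR's quasi-likelihood test). Cnot7 lay at 886 to 1048 CPM in control and 622 to 788 CPM in KO libraries, a log2 fold change of -0.38 (adjusted p = 0.0105), which was -0.09 when libraries were scaled by their totals alone. The row counts reads over the whole gene, and the deleted exons were not examined separately. The paper reported depletion of both proteins in KO oocytes by immunoblotting. The summed level of 10 oocyte markers was 17456 to 20034 CPM in control and 14391 to 16799 CPM in KO libraries. Of 12 granulosa or cumulus markers, 5 were higher and 1 was lower at a false discovery rate (FDR) of at most 0.05, against 31.2% and 24.1% of all tested genes. The summed level of these markers was 129 to 174 CPM in control and 213 to 267 CPM in KO libraries. Of the 4 defining granulosa genes, Foxl2 had at most 1 count in any library, Amh averaged 0.765 CPM in control and 0.340 CPM in KO, Fshr averaged 1.29 and 3.87 CPM, and Cyp19a1 averaged 58.4 and 31.3 CPM. The part of granulosa RNA in the results that follow was not tested.

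Of the 10 genes, Fam46a was upregulated in CNOT7&8 KO oocytes and Fam46b was downregulated where differentially expressed genes (DEGs) had to change at least 2-fold at an FDR no higher than 0.05. Such calls were made for 23.8% of all tested genes in the upward and 6.56% in the downward direction. At the same FDR without the fold threshold, 2 genes were higher (Fam46a and Zcchc11) and 6 were lower (Papola, Papd4, Papd7, Zcchc6, Fam46b and Fam46c), against 31.2% and 24.1% of all tested genes. Papolg and Papd5 did not pass. The 4 KO values lay entirely above the 4 control values for 1 gene and entirely below for 6, against 27.0% and 21.4% of all tested genes. The median log2 fold change was -0.62 over the 10 genes and 0.12 over all tested genes. Changes in these oocytes went with abundance, since the median log2 fold change was 0.74 for 10515 genes under 10 CPM, -0.17 for 6314 genes of 10 to under 100 CPM, and -0.37 for 2412 genes of 100 CPM or more. Scaling by library totals alone raised the median log2 fold change of all genes by 0.29. The log2 fold changes are therefore relative to the TMM scaling. The number of oocytes was the same in every library, but for any other cells carried along in these bulk samples, fewer cells of a type and less RNA per cell cannot be told apart.

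**Figure D1:**
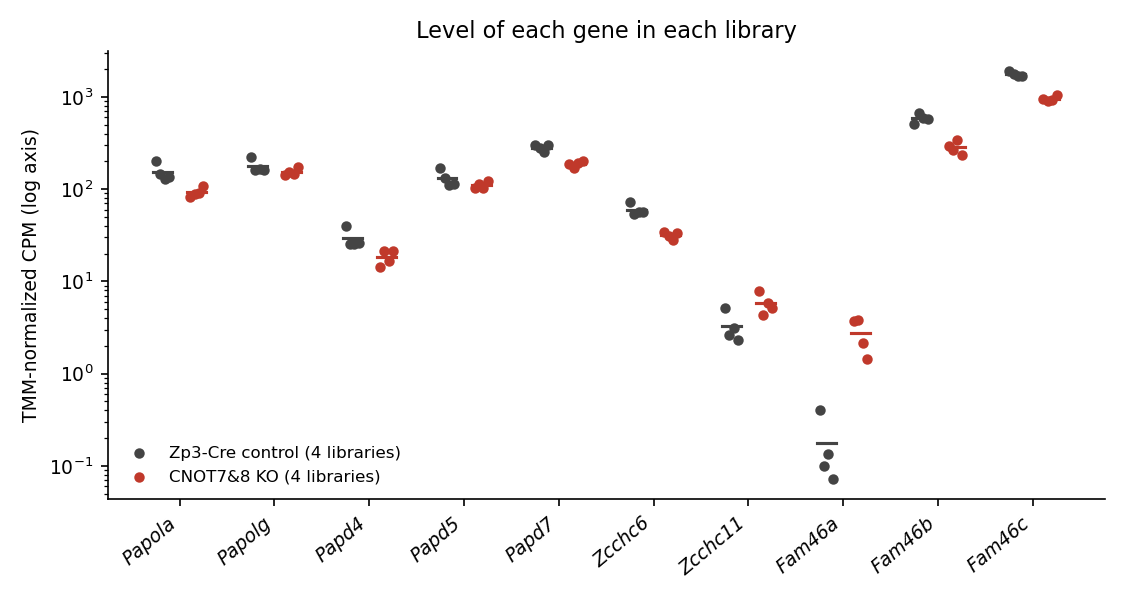
Level of each of the 10 genes in each library, in TMM-normalized CPM on a log axis, with 4 Zp3-Cre control libraries (grey) and 4 CNOT7&8 KO libraries (red), where each point is a library and each bar the group mean. The FAM46 genes include the highest (Fam46c, 1763 CPM on average in control) and the lowest (Fam46a, 0.177 CPM), and the groups overlap for Papolg, Papd5 and Zcchc11.

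Levels between genes were compared per kb of the longest annotated transcript. Fam46c and Fam46b stood highest in control oocytes, at 313 (299 to 336) and 257 (223 to 291) CPM per kb as mean and range over 4 libraries, and their ranges did not overlap. Papd7 followed at 57.9 (51.7 to 61.9) CPM per kb and overlapped the next gene, Papolg, at 47.4 (42.6 to 59.3) CPM per kb. Below them came Papola at 34.7 (29.1 to 45.5) and Papd5 at 28.6 (24.2 to 36.7) CPM per kb, neighbours whose ranges overlapped. Zcchc6 at 10.2 (9.09 to 12.5) and Papd4 at 9.46 (8.13 to 13.0) CPM per kb were not separated from each other. Zcchc11 at 0.546 and Fam46a at 0.0314 CPM per kb were the lowest. In KO oocytes the order of the upper genes was Fam46c at 168 (158 to 185), Fam46b at 123 (103 to 147), Papolg at 41.0 (38.1 to 46.3) and Papd7 at 38.7 (34.9 to 41.2) CPM per kb, with the last pair overlapping. With the mean instead of the longest transcript length, Papola (91.1 CPM per kb) stood above Papolg (73.4) and Papd7 (71.7) in control, so the order of these 3 rests on the transcript models.

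The 10 genes summed to 758 ± 34.2 CPM per kb in control and 429 ± 15.8 CPM per kb in KO oocytes (SD, n = 4). The 3 FAM46 genes made up 75.1% ± 2.89 of that sum in control and 68.1% ± 2.17 in KO oocytes. Transcripts of the canonical enzymes made up 10.8% ± 1.66 and 14.4% ± 1.36, and those of Papd5 with Papd7 made up 11.4% ± 0.891 and 14.5% ± 0.59. Papd4 stayed between 1.04% and 1.69% and the uridylyltransferases between 1.21% and 1.69% of the sum in every library. These shares are descriptions without a test. They are shares of RNA, and protein levels of these genes were not examined. The paper reported at most a weak correlation between changes of RNA and of protein in KO oocytes at this stage.

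The canonical nuclear enzymes are Papola, the main poly(A) polymerase of pre-mRNA 3′ end formation, and Papolg, its nuclear paralog. Papola (ENSMUSG00000021111, GRCm38 chr12:105784694-105838944, plus strand) had 199, 146, 127 and 135 CPM in control replicates 1 to 4, and 81.1, 88.7, 90.6 and 108 CPM in KO replicates 1 to 4. Every KO value was below every control value, and control replicate 1 was the highest of all. The mean fell from 152 ± 32.4 to 92.2 ± 11.5 CPM (SD, n = 4), that is to 60.6% of control, with a log2 fold change of -0.72 ± 0.15 (SE, adjusted p = 0.00158, edgeR's quasi-likelihood test). Papolg (ENSMUSG00000020273, chr11:23862646-23895253, minus strand) had 222, 162, 167 and 160 CPM in control and 143, 153, 144 and 174 CPM in KO replicates. KO replicate 4 exceeded 3 of the 4 control values, and the log2 fold change of -0.21 ± 0.13 did not pass the test (adjusted p = 0.18). The sign of that change depended on the scaling, being 0.08 with library totals alone and 0.05 with TMM computed on genes of at least 10 CPM. Within each library, where no scaling enters, the log2 ratio of Papola to Papolg was -0.23 ± 0.11 in control and -0.74 ± 0.07 in KO oocytes, a difference of -0.51 (p = 0.0286, two-sided exact permutation test, the smallest p that 4 against 4 libraries allows, and 0.0429 after adjustment over the 6 pairs compared). All 4 KO ratios were below the 4 control ratios, so the transcripts of Papola fell relative to those of Papolg.

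Papd4 encodes GLD2, the cytoplasmic poly(A) polymerase known for elongating tails of CPE-containing mRNAs in frog oocytes, together with the CPE-binding protein CPEB1. Papd4 (ENSMUSG00000042167, chr13:93146282-93192385, minus strand) had 40.1, 25.1, 25.2 and 26.2 CPM in control and 14.3, 21.2, 16.6 and 21.3 CPM in KO replicates. The groups did not overlap, and control replicate 1 stood well above the other controls. The mean fell from 29.2 ± 7.31 to 18.4 ± 3.46 CPM, or 63.0% of control, with a log2 fold change of -0.66 ± 0.19 (adjusted p = 0.0111, edgeR's quasi-likelihood test). This call was lost when libraries were scaled by totals alone, where the log2 fold change was -0.37 (adjusted p = 0.103), and with TMM on genes of at least 10 CPM, where it was -0.40 (adjusted p = 0.0597).

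Papd5 and Papd7 encode TRF4-like enzymes. Both add adenosines with occasional guanosines, which hinder deadenylation by CCR4–NOT, and PAPD5 also tails nuclear noncoding RNAs for trimming. Papd5 (ENSMUSG00000036779, chr8:88199213-88259722, plus strand) had 170, 133, 112 and 114 CPM in control and 102, 114, 102 and 122 CPM in KO replicates. The groups overlapped, the log2 fold change of -0.27 ± 0.14 did not pass the test (adjusted p = 0.126, edgeR's quasi-likelihood test), and with library totals alone it was 0.02. Papd7 (ENSMUSG00000034575, chr13:69497959-69534617, minus strand) had 301, 277, 252 and 297 CPM in control and 189, 170, 194 and 201 CPM in KO replicates. The groups were well apart, and the mean fell from 282 ± 22.6 to 188 ± 13.2 CPM, or 66.8% of control, with a log2 fold change of -0.58 ± 0.10 (adjusted p = 0.000501). Exons of Papd7 overlap those of Nsun2 on the opposite strand, and the strand setting of the counting is not given in the sources used here. Nsun2 itself averaged 60.7 ± 7.84 CPM in control and 45.2 ± 1.19 CPM in KO oocytes, and had a log2 fold change of -0.43 ± 0.12 (adjusted p = 0.00927). The log2 ratio of Papd5 to Papd7 was -1.11 ± 0.23 in control and -0.78 ± 0.17 in KO oocytes, a difference of 0.33 that did not pass (p = 0.0857, two-sided exact permutation test, 0.103 adjusted over 6 pairs).

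Zcchc6 and Zcchc11 encode the uridylyltransferases TUT7 and TUT4, which tail mRNAs with short poly(A) tails and the precursors of let-7 miRNAs. Zcchc6 (ENSMUSG00000035248, chr13:59771561-59823147, minus strand) had 73.3, 53.3, 56.3 and 55.8 CPM in control and 34.0, 31.0, 28.3 and 33.7 CPM in KO replicates. All KO values lay far below the lowest control, and the mean fell from 59.7 ± 9.16 to 31.7 ± 2.65 CPM, or 53.2% of control, with a log2 fold change of -0.91 ± 0.13 (adjusted p = 0.000129, edgeR's quasi-likelihood test). Exons of Zcchc6 overlap the antisense gene Etohd2, which had 2 to 14 counts in a library, and Gm49354 on the same strand, which has no row in the table. Zcchc11 (ENSMUSG00000034610, chr4:108459426-108559421, plus strand) had 5.16, 2.61, 3.13 and 2.33 CPM in control and 7.92, 4.28, 5.86 and 5.18 CPM in KO replicates. Control replicate 1 lay above KO replicate 2 and close to KO replicate 4, so the groups overlapped. The log2 fold change of 0.77 ± 0.28 passed the test (adjusted p = 0.0349), but the call was lost without control replicate 2 (0.67, adjusted p = 0.0925), control replicate 3 (0.74, adjusted p = 0.0746), control replicate 4 (0.64, adjusted p = 0.0898) or KO replicate 1 (0.64, adjusted p = 0.0675). Zcchc11 stood at 0.055 of the level of Zcchc6 in control and 0.181 in KO oocytes by counts, with log2 ratios of -4.18 ± 0.30 and -2.46 ± 0.35, a difference of 1.72 with no overlap between the groups (p = 0.0286, two-sided exact permutation test, 0.0429 adjusted over 6 pairs). This ratio also passed when each library was left out in turn. Over all tested genes, the median log2 fold change was 0.74 under 10 CPM, where Zcchc11 lay. It was -0.17 at 10 to under 100 CPM, where Zcchc6 lay. The permutation test took no account of this trend, and unrelated pairs of such levels were not compared.

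The FAM46 proteins are noncanonical cytoplasmic poly(A) polymerases, and FAM46C is known from plasma cells, where it extends tails of mRNAs for secreted proteins and acts as a suppressor of myeloma. Fam46c (ENSMUSG00000044468, chr3:100451628-100489324, minus strand) had 1897, 1775, 1689 and 1693 CPM in control and 952, 891, 914 and 1044 CPM in KO replicates. The groups were far apart relative to their spread, and the mean fell from 1763 ± 97.3 to 950 ± 67.3 CPM, or 53.9% of control, with a log2 fold change of -0.89 ± 0.10 (adjusted p = 1.4e-05, edgeR's quasi-likelihood test). Fam46b (ENSMUSG00000046694, chr4:133480132-133487938, plus strand) had 511, 665, 592 and 580 CPM in control and 292, 265, 337 and 236 CPM in KO replicates. Here control replicate 1 was the lowest control, yet still above every KO value. The mean fell from 587 ± 63.2 to 282 ± 42.8 CPM, or 48.1% of control, with a log2 fold change of -1.06 ± 0.13 (adjusted p = 3.06e-05). Fam46b stayed below the FDR threshold under every alternative, but it lay near the fold threshold and was no longer a DEG with library totals alone (log2 fold change -0.78), with TMM on genes of at least 10 CPM (-0.81), without KO replicate 4 (-0.97) or without control replicate 2 (-0.99). The ratio of Fam46b to Fam46c did not pass, with log2 values of -1.59 ± 0.21 in control and -1.76 ± 0.29 in KO oocytes and a difference of -0.17 (p = 0.371, two-sided exact permutation test and after adjustment).

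Fam46a, known from bone, where it supports collagen mRNAs in osteoblasts, moved the other way from a level near the detection floor. Fam46a (ENSMUSG00000032265, chr9:85320439-85327348, minus strand) had 15, 2, 2 and 1 counts in control and 34, 70, 35 and 42 counts in KO replicates, which equals 0.401, 0.0987, 0.136 and 0.0728 CPM against 3.69, 3.84, 2.16 and 1.43 CPM. The 3 other controls were at or under 3 counts, and every KO library was above control replicate 1. Of the controls, only replicate 1 reached the 0.2 CPM that the filter asks of 2 libraries. Fam46a was thus tested only because it was high in KO libraries. The mean rose from 0.177 ± 0.151 to 2.78 ± 1.18 CPM, or 15.7-fold, with a log2 fold change of 3.66 ± 0.51 (adjusted p = 9.04e-05, edgeR's quasi-likelihood test). Pooled counts of 20 in control and 181 in KO libraries gave a ratio of 10.7 after scaling, with an exact 95% interval of 6.71 to 17.9 that covers counting error only. Control replicate 1 held 15 of the 20 control counts, and without it the log2 fold change was 4.64 and the pooled ratio 24.2 (10.2 to 75.3). Within libraries, the log2 ratio of Fam46a to Fam46b differed by 4.42 and that of Fam46a to Fam46c by 4.25 between KO and control, each with no overlap between the groups (p = 0.0286, two-sided exact permutation test, 0.0429 adjusted over 6 pairs). The size of these differences depended on the prior count of 2, being 4.98 and 4.81 with a prior count of 0.5 and 3.77 and 3.60 with a prior count of 5. These ratios also set a low gene over abundant ones. Over all tested genes, the median log2 fold change was 0.74 under 10 CPM and -0.37 at 100 CPM or more. The permutation test took no account of that trend. Fam46a reached 0.492 CPM per kb in KO oocytes, against 123 for Fam46b and 168 for Fam46c.

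**Figure D2:**
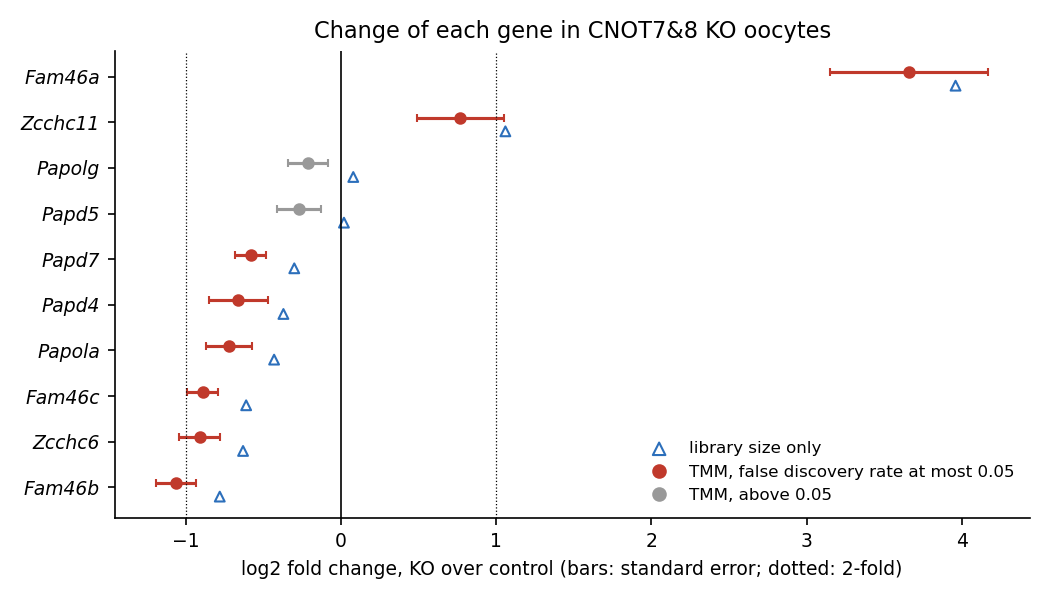
Log2 fold change of each gene in CNOT7&8 KO over Zp3-Cre control oocytes (n = 4 libraries each), with circles and standard errors from TMM scaling (red at an FDR of at most 0.05, grey above) and blue triangles from scaling by library totals alone. Dotted lines mark a 2-fold change. Fam46a (3.66) and Zcchc11 (0.77) lie to the right and the 6 lower genes to the left with either scaling, while Papolg and Papd5 lie near 0.

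**Figure D3:**
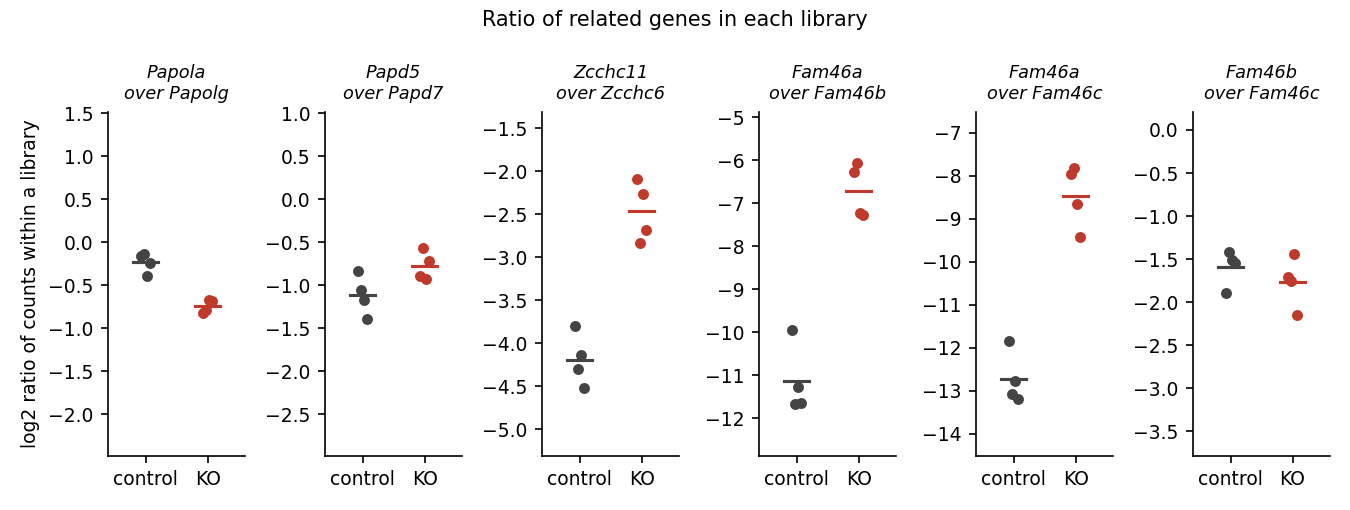
Log2 ratio of counts of related genes within each library, for control (grey) and KO (red) with 4 libraries each and bars at the group means. The axis spans 8 units for the panels with Fam46a and 4 units for the others, and the groups separate for Papola over Papolg, Zcchc11 over Zcchc6 and both Fam46a ratios. Of single tested genes, 27.0% lay entirely higher and 21.4% entirely lower in KO libraries. The share of unrelated pairs that separate was not computed.

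The 10 genes were set beside genes of like abundance. Among 2412 genes of 100 CPM or more, Fam46b had a lower log2 fold change than all but 4.73% of them, Fam46c than all but 10.1%, and Papola than all but 19.5%. Papd7 (31.0%), Papd5 (60.0%) and Papolg (65.0%) lay nearer the middle of that interval, so the fall of Papd7 was close to that of many abundant oocyte transcripts. Among genes of 10 to under 100 CPM, 10.9% had a lower log2 fold change than Zcchc6 and 21.7% a lower one than Papd4. Among genes under 10 CPM, 50.6% lay below Zcchc11 and 89.7% below Fam46a, so the rise of Zcchc11 was at the middle of its interval.

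**Figure D4:**
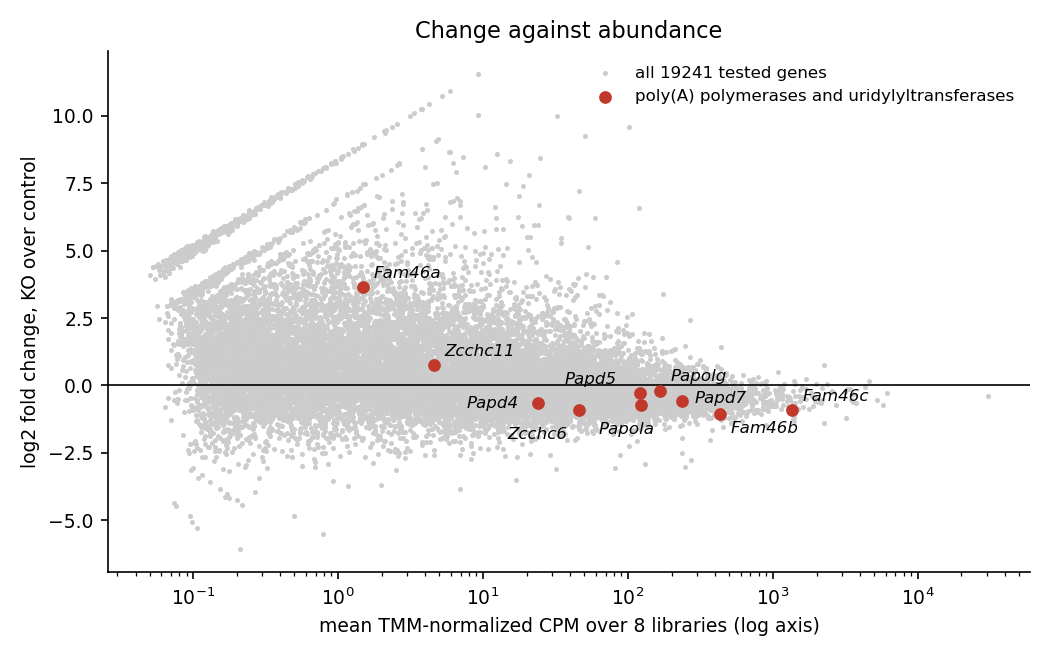
Log2 fold change (KO over control) against mean TMM-normalized CPM over 8 libraries on a log axis, with all 19241 tested genes in grey and the 10 poly(A) polymerase and uridylyltransferase genes in red. Low genes spread upward and abundant genes lie mostly below 0; Fam46b (-1.06) and Fam46c (-0.89) lie toward the lower edge of the abundant genes and Fam46a (3.66) in the upper part of the low ones.

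The genes most like Fam46c, the member of highest mean CPM, were named by Pearson correlation of log2 CPM over the 8 libraries. They were Reg3a (r = 0.996, from 0.843 to 0.247 CPM), D930015E06Rik (r = 0.9952, from 173 to 75.6 CPM) and Igf1os (r = 0.9939, from 29.9 to 8.85 CPM). The KO mean of Reg3a lay within the range of the detection floor. The points share the split between the groups, so these values are descriptions.

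The 3′UTRs of the 10 genes were searched for the CPE in the form TTTTAT, since polymerase transcripts could themselves carry the element through which GLD2 is recruited. The search used the mRNA strand of the longest annotated 3′UTR (GENCODE vM21, GRCm38). The element was found in 8 of the 10 genes, and in 56.2% of 15113 tested protein-coding genes. The median 3′UTR of the latter was 1119 bases. Only Zcchc11 (636 bases) and Fam46b were shorter, and the others had from 1309 (Papd4) to 4206 bases (Fam46c). Longer 3′UTRs offer more positions for a match, and the shares given here for any element were not adjusted for length. Fam46b (835 bases) and Fam46c (4206 bases), the most abundant of the 10 and among the most reduced, had none. The number of copies was 6 in Papola, Papd5 and Fam46a, 3 in Papd4 and Papd7, and 2 in Papolg, Zcchc6 and Zcchc11. Only in Papd7 did a copy lie within the last 100 bases (14.6% of tested protein-coding genes), 47 bases from the annotated end and 27 bases before the AATAAA signal, the arrangement in which CPEs are known to act. Papola, Papolg and Papd5 had no AATAAA or ATTAAA in the last 50 bases, where 78.5% of tested protein-coding genes had such a signal. Whether their annotated ends are used in oocytes was not examined, so positions relative to these ends are uncertain. The PRE TGTAAATA, the Pumilio element, was found in Papd4, Papd7 and Fam46a (12.0% of tested protein-coding genes). A match is a description of these letters and not a test of binding. The copy nearest the 3′ end follows, with the CPE in capitals, for Papd7, where it lies beside the signal, for the lower genes Papola, Papd4 and Zcchc6, and for the higher genes Zcchc11 and Fam46a.
Papd7, chr13:69497994-69498023, minus strand: aaattaacatatTTTTATgtaaagtttttc
Papola, chr12:105838018-105838047, plus strand: ttttaaactaatTTTTATttttaaccagtt
Papd4, chr13:93146796-93146825, minus strand: ctgttttcctggTTTTATtttcctcatgat
Zcchc6, chr13:59771858-59771887, minus strand: ttgaacgtgtaaTTTTATccacattatttt
Zcchc11, chr4:108559048-108559077, plus strand: tttttaagggaaTTTTATgttttgtttaac
Fam46a, chr9:85322100-85322129, minus strand: actgccactctcTTTTATaaggaactgatc
Genes with a CPE stood on both sides of 0, among them Papola (log2 fold change -0.72) and Fam46a (3.66). A relation between the CPE and the changes of RNA level was not tested.

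A further 4 lists of related genes were set beside the 10. For comparison, 31.2% of all tested genes were higher and 24.1% lower at the FDR threshold, with 23.8% upregulated and 6.56% downregulated DEGs. Of 5 other nucleotidyltransferases, 4 were tested, of which 2 were higher and 2 lower at the FDR threshold, and the median log2 fold change was -0.23. Fam46d, the remaining FAM46 paralog, had 6.12, 5.03, 6.33 and 8.08 CPM in control and 21.6, 23.4, 21.6 and 26.4 CPM in KO replicates. It was upregulated with no overlap (log2 fold change 1.87 ± 0.17, adjusted p = 3.69e-06, edgeR's quasi-likelihood test), so that of the FAM46 genes the low pair rose and the abundant pair fell. Tut1, the U6 snRNA uridylyltransferase, rose from 55.4 ± 7.03 to 75.0 ± 15.4 CPM (0.44 ± 0.15, adjusted p = 0.0292), a call lost without control replicate 1 or 4 or KO replicate 1 or 3. The mitochondrial poly(A) polymerase gene Mtpap fell from 175 ± 27.8 to 94.6 ± 10.3 CPM (-0.89 ± 0.13, adjusted p = 0.000134). Trnt1, which adds CCA to tRNAs, fell from 168 ± 25.6 to 88.1 ± 9.21 CPM (-0.93 ± 0.13, adjusted p = 9.45e-05). Papolb, the testis poly(A) polymerase, was below the filter, with 0 to 3 counts in a library.

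Nuclear cleavage and polyadenylation factors, which work with Papola, moved in both directions. Of 19 genes, 9 were higher and 8 lower at the FDR threshold, with 5 upregulated and 2 downregulated DEGs and a median log2 fold change of 0.22. The upregulated genes were Clp1 (log2 fold change 3.20), the cleavage factor I subunits Cpsf7 (2.64) and Nudt21 (1.22), the testis-type CstF-64 gene Cstf2t (2.53), and Rbbp6 (1.91). The downregulated genes were the scaffold gene Sympk (-1.50) and Fip1l1 (-1.19), whose product binds poly(A) polymerase. The genes of smallest adjusted p among the rest were Cstf2 (0.87), Pcf11 (0.78), Cpsf4l (-0.79) and Wdr33 (-0.49). With library totals alone, the list had 10 higher and 4 lower genes, of which 8 were upregulated DEGs and 1 a downregulated DEG. Of all 19241 tested genes, the same scaling called 7742 higher and 2620 lower, with 5641 upregulated and 588 downregulated DEGs. Under that scaling Fip1l1 (-0.91) fell short of 2-fold and Wdr33 (-0.21) did not pass the test.

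Of 8 genes for partners of the terminal nucleotidyltransferases, 7 were tested, with 2 higher, 4 lower, no DEG and a median log2 fold change of -0.55. Lin28b (0.99), whose product binds let-7 precursors, and Zcchc14 (0.51), a partner of Papd5 and Papd7, were higher. The paralog Lin28a was lower (-0.58), from 206 to 139 CPM on average, whereas Lin28b rose from 24.0 to 48.0 CPM. Cpeb1 was lower too (-0.55), with overlapping groups. Skiv2l2 (-0.87) and Zcchc7 (-0.86), the helicase and the RNA-binding subunit of the TRAMP complex that acts with Papd5, were lower. With library totals alone, 3 genes were higher and 3 lower. Lin28b was an upregulated DEG under that scaling (1.28) and with DESeq2 (1.01). Of 10 genes for U-tail binding and 3′ trimming, 2 were higher and 6 lower, with a median log2 fold change of -0.37. The DEGs were Lsm7 (-1.58), a subunit of the Lsm ring that binds oligouridylated ends, and Dis3l2 (-1.16), the exonuclease for uridylated RNA. Other named genes of that list were Lsm1 (0.96), Usb1 (0.61), Lsm4 (-0.99) and Lsm5 (-0.69). With library totals alone, 2 were higher and 4 lower, Lsm1 (1.24) became an upregulated DEG, and Dis3l2 (-0.88) was no longer a DEG.

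**Figure D5:**
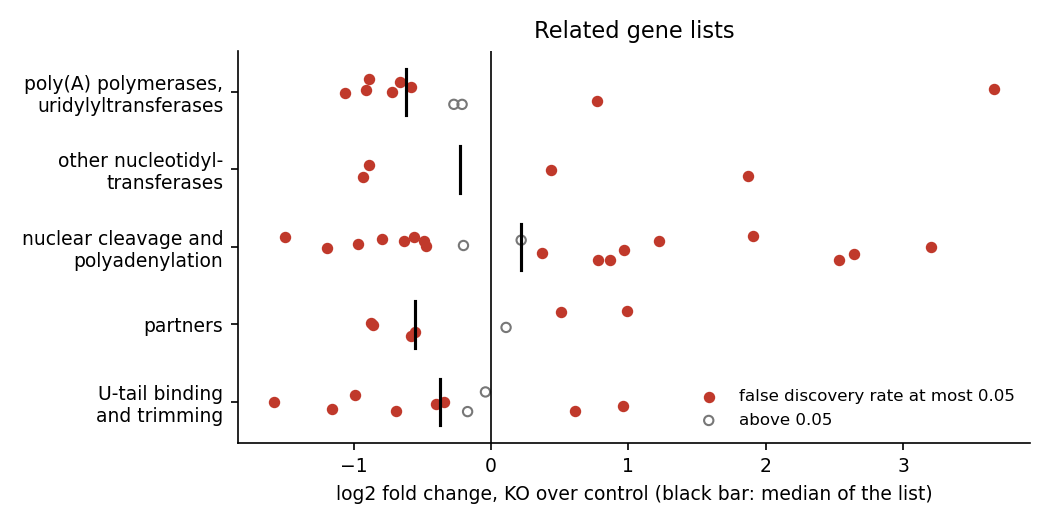
Log2 fold change (KO over control, TMM scaling) of every tested gene of the 10 poly(A) polymerases and uridylyltransferases and of 4 related lists, with red points at an FDR of at most 0.05, open points above it and black bars at the list medians. Points are spread vertically only for legibility. The medians run from -0.62 for the 10 genes to 0.22 for nuclear cleavage and polyadenylation factors, whose points lie on both sides of 0.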

How the data were processed

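The authors mapped 150-bp read pairs to GRCm38 with STAR 2.6.1d and deposited raw counts per gene, without normalization. The counting tool, annotation release and strand setting are not given in the sources used here. The labels name a stranded total RNA kit with ribosomal RNA removal (Ribo-Zero Gold). The methods name a stranded mRNA kit, which they describe as using ribosomal RNA depletion. Which kit was used is not settled, and whether recovery of a transcript depended on its tail length was not tested. The members and gene lists were chosen with earlier results of these data known. Each column was assigned to a sample through the genotype and number in its name. Testing covered genes that reached 0.2 CPM in at least 2 libraries. It was done in R 4.3.3 with edgeR 4.0.16 (TMM, quasi-likelihood test, Benjamini-Hochberg adjustment). A check on simulated data changed a small share of the genes, in random directions. That check does not cover TMM scaling where many genes change and more of them upward, as here. The study used edgeR's exact test, kept here as an alternative beside DESeq2 1.42.0, other scalings and filters, the replicate number as a block, and leaving out libraries. Ratios were compared by exact permutation over 70 assignments, on log2 CPM with a prior count of 2. Named genes were the 10 members, Cnot7 and Cnot8, the other nucleotidyltransferases, and the 3 genes most correlated with the most abundant member. Of the other lists, DEGs and the 2 genes of smallest adjusted p in each direction were named, and also Lin28a and Cpeb1. Of the gene IDs, 98.0% matched GENCODE vM21. Python 3.11.15, pandas 2.3.3, scipy 1.17.1 and matplotlib 3.10.9 were used.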

Additional observations from a re-analysis of the deposited data

Results flagged for a closer look

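In 3 of 20 groups of 4 libraries, control replicate 1 stood apart from the other controls by Dixon's criterion, which chance meets in about 1 of 20 groups. These were Papolg (222 CPM in control replicate 1), Papd4 (40.1 CPM) and Zcchc6 (73.3 CPM). Control replicate 1 was also the deepest library and the highest control for 9 of the 10 genes, Fam46b being the exception. Over all genes, its chi-square per degree of freedom against other controls was 140 to 210, and 7.85 to 17.7 among those. KO replicate 4, the deepest KO library, had 40.4 to 91.2 against other KO libraries, and those 20.2 to 32.2. This measure grows with depth. The deviations of control replicate 1 and KO replicate 4 correlated at r = 0.372.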

How the results depend on the processing

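The FDR-based directions of Papola, Papd7, Zcchc6, Fam46a, Fam46b and Fam46c held under all 18 alternatives, with log2 fold changes of -0.80 to -0.43, -0.63 to -0.30, -0.96 to -0.63, 3.44 to 4.86, -1.13 to -0.78 and -0.92 to -0.61. Upregulated DEGs among the 10 genes numbered 2 (Fam46a and Zcchc11) with library totals alone, with TMM on genes of at least 10 CPM, and without control replicate 1 and KO replicate 4 together, and 1 to 2 when leaving out single libraries. Downregulated DEGs numbered 0 with library totals alone, upper quartile scaling, TMM on genes of at least 10 CPM or a filter of 1 CPM in 4 libraries, since Fam46b fell under 2-fold, and 0 to 1 when leaving out single libraries. Genes higher at the FDR threshold numbered 1 to 2 when leaving out single libraries. Over all tested genes, upregulated DEGs numbered 4582 in the main fit and 5641 with library totals alone, and downregulated DEGs 1263 and 588. Papolg reversed to 0.08 with library totals alone and 0.05 with TMM on genes of at least 10 CPM, and Papd5 to 0.02 with library totals alone. The Papd5 to Papd7 ratio difference passed without control replicate 1 (0.42), and ranged from 0.24 to 0.42 when leaving out single libraries. Same-numbered libraries of both groups correlated at r = -0.121 to 0.11 in their deviations, and 1 of 8 correlated best with its own number. The main fit did not pair libraries by number. Deviations from means of only 4 libraries cannot exclude a batch shared by number. With the replicate block, the members' counts stayed at 1, 1, 2 and 6 for DEGs up, DEGs down, higher and lower, and Zcchc11 had a log2 fold change of 0.84. Depth limits Fam46a above all, whose controls held 20 counts.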
